A study of Mus musculus with 28 samples.

Results

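The 10 glucocorticoid-responsive genes were followed in the livers, pancreata and lungs of mice that overexpress human APOBEC3B (A3B), a cytosine deaminase. They were chosen by symbol, as the receptor gene and 9 genes known to respond to the hormone, and not by a threshold on measured values. Earlier results of these data were known when genes and lists were chosen. Their shares, set below beside those of all genes, are therefore descriptions. The 10 genes are Nr3c1, Fkbp5, Tsc22d3, Klf9, Zbtb16, Per1, Sgk1, Ddit4, Dusp1 and Errfi1. All 10 were found, among 35928 gene symbols in one set of libraries and 24845 gene rows in the other, and all 10 passed the filter on low values in each comparison.

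The 28 samples form 2 sets that were quantified differently. The kallisto libraries give transcript estimates for 6 A3B and 2 control livers and for 6 A3B and 2 control pancreata. The TPM table gives values per gene, as TPM (read density per transcript length, scaled to a fixed total), for 3 A3B and 3 control livers and for 3 A3B and 3 control lungs. A3B mice carry a tetO-driven A3B-tGFP transgene in the ColA1 locus together with a constitutive CAGs-rtTA3 driver, so expression is not restricted to a cell type. Controls are littermates that carry the transgene or the driver alone. Induction began in mice that the study calls adult. It records that A3B mice were killed at a humane endpoint, so illness and transgene cannot be told apart in either set. The labels give doxycycline food at 625 ppm for all animals, for 10 days in the kallisto libraries, 14 days for the A3B livers of mice 23 and 28, 10 days for the A3B liver of mouse 70 and the A3B lungs of mice 69, 70 and 74, and 15 days for all controls of the table. Arm and duration are therefore confounded in the table. The kallisto libraries held 65161064 to 98780481 estimated counts in A3B livers, 104834346 and 118976013 in control livers, 74836907 to 87633469 in A3B pancreata and 87288183 and 95604352 in control pancreata, and the lowest count of any member in any library was 233. The depth behind the table is unknown.

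Labels conflict for some animals. The pancreata of mice 44 and 137 are titled as A3B samples but their genotype label reads A3B alone, and the control pancreata of mice 45 and 168 carry the label A3B + CAGS-rtTA, while the livers of the same mice carry the opposite labels, which the study's mouse list also gives. Groups here follow the titles. The control liver of mouse 11 is labelled A3B + CAGS-rtTA, and the control lung of mouse 87 as CAGs. The mouse list also records most controls of the table as kept without doxycycline, against their labels, and a figure legend of the study describes the control animals of its liver and pancreas sequencing as without doxycycline too, whereas its methods state that control littermates received it. Whether the arms were matched for doxycycline is therefore not settled in either set, and its part in the results was not tested. The transgene averaged 1332 ± 546 TPM (SD, n = 3) in the table's A3B livers. In its A3B lungs the average was 162 ± 104 TPM (SD, n = 3). No control liver, that of mouse 11 included, exceeded 0.144 TPM, and no control lung 0.526 TPM. The transgene was not analysed in the kallisto libraries, so it does not check their labels. There, the Y-linked gene Ddx3y put both libraries of each of the 7 mice with a liver and a pancreas on the same side, at most 0.109 TPM or at least 4.4 TPM. Ddx3y exceeded 1 TPM in 3 of 6 A3B and 1 of 2 control libraries of each tissue. In the table it did so only in the control liver of mouse 11.

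Glucocorticoids are adrenal steroids that rise with stress, fasting and the daily rhythm. They cross the cell membrane and bind the glucocorticoid receptor, which is held in the cytoplasm by HSP90 and co-chaperones. The receptor then moves to the nucleus, binds a palindromic DNA element and raises the transcription of genes for gluconeogenesis, stress handling and the restraint of inflammation. FKBP5, a co-chaperone that lowers the receptor's affinity for hormone, is itself induced and closes a short feedback loop. Several of these genes also respond to insulin, cAMP, hypoxia, DNA damage or growth factors, and Per1 is a clock component, so none of them reads the receptor alone.

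Promoter windows from RefSeq (build GRCm38.p6, 250 bases before to 50 after a start site) were matched by symbol for 8 of the 10 genes, in 17 windows. They were searched on both strands for the receptor's palindrome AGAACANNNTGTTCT, the clock E-box CACGTG and the cAMP response element TGACGTCA. The palindrome was in 3 of 32851 windows (0.00913%), and a window of Sgk1 was among them. The E-box was in 7.15% of all windows and in a window of Sgk1, Per1, Dusp1 and Fkbp5. The cAMP element was in 1.79% of all windows and in a window of Dusp1 and Errfi1. These 4 windows are shown because they hold the palindrome or an E-box. Capitals mark the palindrome, the E-box and the cAMP element, whose matches in these 4 windows do not overlap.
Sgk1, chr10:21993640-21993939, plus strand: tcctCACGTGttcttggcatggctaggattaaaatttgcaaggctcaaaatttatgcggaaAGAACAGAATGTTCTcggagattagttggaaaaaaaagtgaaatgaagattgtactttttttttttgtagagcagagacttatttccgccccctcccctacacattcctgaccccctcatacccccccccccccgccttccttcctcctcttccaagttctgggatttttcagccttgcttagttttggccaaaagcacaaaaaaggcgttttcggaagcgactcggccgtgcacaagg
Fkbp5, chr17:28486100-28486399, minus strand: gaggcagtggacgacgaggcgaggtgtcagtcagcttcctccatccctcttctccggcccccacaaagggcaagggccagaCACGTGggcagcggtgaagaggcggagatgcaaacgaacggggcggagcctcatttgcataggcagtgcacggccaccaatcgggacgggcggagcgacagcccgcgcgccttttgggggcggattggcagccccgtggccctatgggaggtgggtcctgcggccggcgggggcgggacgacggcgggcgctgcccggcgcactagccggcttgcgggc
Per1, chr11:69098699-69098998, plus strand: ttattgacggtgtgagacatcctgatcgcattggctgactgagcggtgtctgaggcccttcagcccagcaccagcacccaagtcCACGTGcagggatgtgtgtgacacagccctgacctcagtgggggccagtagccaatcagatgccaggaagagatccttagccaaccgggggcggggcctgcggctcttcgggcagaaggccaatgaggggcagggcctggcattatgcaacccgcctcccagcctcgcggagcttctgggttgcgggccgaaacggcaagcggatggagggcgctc
Dusp1, chr17:26508423-26508722, minus strand: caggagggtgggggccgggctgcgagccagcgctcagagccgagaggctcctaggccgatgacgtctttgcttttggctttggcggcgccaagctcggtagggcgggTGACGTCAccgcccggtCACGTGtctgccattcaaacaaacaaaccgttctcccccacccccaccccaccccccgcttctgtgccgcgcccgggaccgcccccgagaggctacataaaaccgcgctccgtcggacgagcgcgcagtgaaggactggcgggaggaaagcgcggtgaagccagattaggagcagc

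The Sgk1 palindrome, at chr10:21993701-21993715, lay 189 bases before the start of the transcript ENSMUST00000092673.10 and 965 bases before that of ENSMUST00000020145.11. The latter supplied most of the gene's TPM, from 51% to 68.8% in A3B livers and from 66.3% to 86.7% in A3B pancreata. It stood at 59.6 ± 29.5 TPM (SD, n = 6) in A3B against 8.83 ± 3.81 TPM (SD, n = 2) in control livers, while the transcript nearest to the palindrome stood at 1.87 ± 0.923 and 1.18 ± 0.327 TPM. A match is a string of letters and not a measured binding site, and a window without one says nothing about elements farther away.

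The members did not move as a block. In the kallisto livers, Zbtb16, Sgk1 and Ddit4 were higher in A3B (3 of 10, against 1.25% of all 17376 genes tested). In the kallisto pancreata, Fkbp5 and Ddit4 were higher (2 of 10, against 17.0% of all genes, so this count stands close to the background). In the livers of the table, Zbtb16, Per1, Sgk1 and Ddit4 were higher (4 of 10, against 6.07%). In the lungs, 8 of 10 were higher (against 16.1%), all but Nr3c1 and Dusp1. No member was lower in any of the 4 comparisons with edgeR or limma (0 also at an unadjusted p under 0.05 and, in the kallisto libraries, with DESeq2), where 2.41%, 14.9%, 1.86% and 20.8% of all genes were lower in the same order. At an unadjusted p under 0.05, 5, 5, 8 and 9 members were higher. The median log2 fold change over the members was 1.26 in kallisto liver (0.21 over all genes tested), 1.22 in pancreas (0.09), 2.18 in the table's livers (0.39) and 1.49 in lung (-0.06). In bulk tissue, a change in the number of cells of a type and a change in RNA per cell cannot be told apart.

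**Figure D1:**
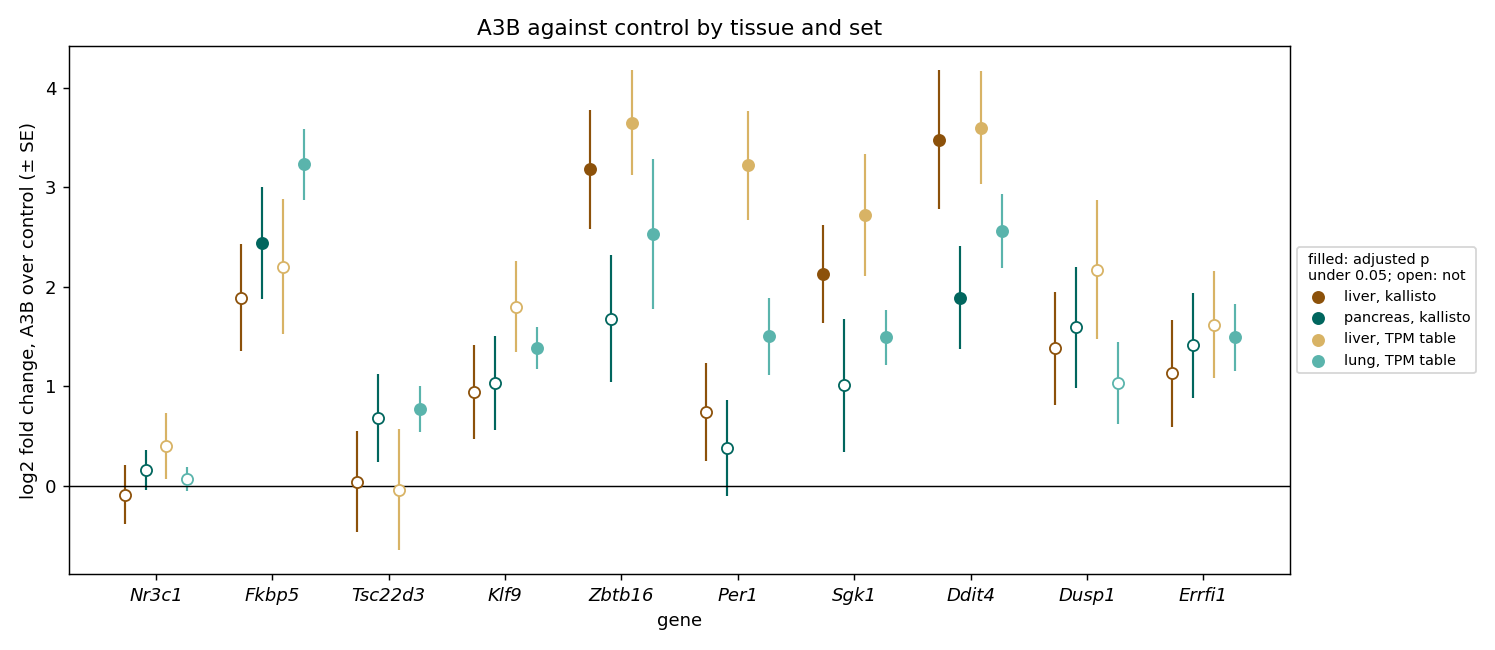
Log2 fold change of A3B over control (y axis, ± SE) for the 10 genes (x axis) in the 4 comparisons, with filled points at an adjusted p under 0.05. Nr3c1 stays between -0.09 and 0.40, whereas Ddit4 lies between 1.89 and 3.60 and is filled in each comparison.

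Nr3c1, on chromosome 18, encodes the receptor. Its level ran from 15.2 through a median of 23.6 to 31.6 TPM in the 6 A3B livers of the kallisto set, and was 14.9 and 23.4 TPM in the 2 controls. The groups overlapped. The log2 fold change was -0.09 ± 0.30 (SE, adjusted p = 0.88). In the table's livers it was 2.27, 2.18 and 3.72 TPM in A3B and 2.8, 1.48 and 1.29 TPM in controls, and in the lungs 3.85, 4.1 and 4.51 against 4.21, 4.32 and 3.26 TPM. These groups overlapped too, with log2 fold changes of 0.40 ± 0.33 (adjusted p = 0.421) and 0.07 ± 0.12 (adjusted p = 0.684). In pancreas Nr3c1 ran from 14.1 through 16.9 to 20.6 TPM against 1.67 and 5.53 TPM, but after scaling for composition the change was 0.16 ± 0.20 (adjusted p = 0.564).

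Fkbp5, on chr17:28399094-28517527 (GRCm38, minus strand), encodes the receptor's feedback regulator. In kallisto liver it ran from 92.3 through a median of 326 to 492 TPM in A3B and was 57.2 and 47.6 TPM in controls. All 6 A3B livers lay above both controls, but mice 49 and 48 (92.3 and 94.9 TPM) stood far below the other 4, and the log2 fold change of 1.89 ± 0.54 did not pass (adjusted p = 0.0792). It passed in 3 of 11 alternatives, among them without mouse 49 (1.99, edgeR adjusted p = 0.0186) and by DESeq2 (1.82, adjusted p = 0.00634). In pancreas it ran from 89.1 through 137 to 219.8 TPM against 4.57 and 2.97 TPM, with no overlap (log2 fold change 2.44 ± 0.56, adjusted p = 0.00825). That call held in all 12 alternatives tried for the pancreas. In lung the A3B values were 60.5, 53.3 and 35.3 TPM and the control values 7.76, 2.81 and 3.41 TPM. The log2 fold change there was 3.23 ± 0.36 (adjusted p = 0.00346), the largest of the 10 genes in that tissue. The A3B values of the table's livers, 76.8, 17.9 and 77.6 TPM, all exceeded the controls (4.08, 15.3 and 13.3 TPM), mouse 28 by a small margin, and the change of 2.20 ± 0.68 did not pass (adjusted p = 0.0803). It passed in 1 of 9 alternatives, the one without mouse 28 (2.89, limma adjusted p = 0.0315).

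**Figure D2:**
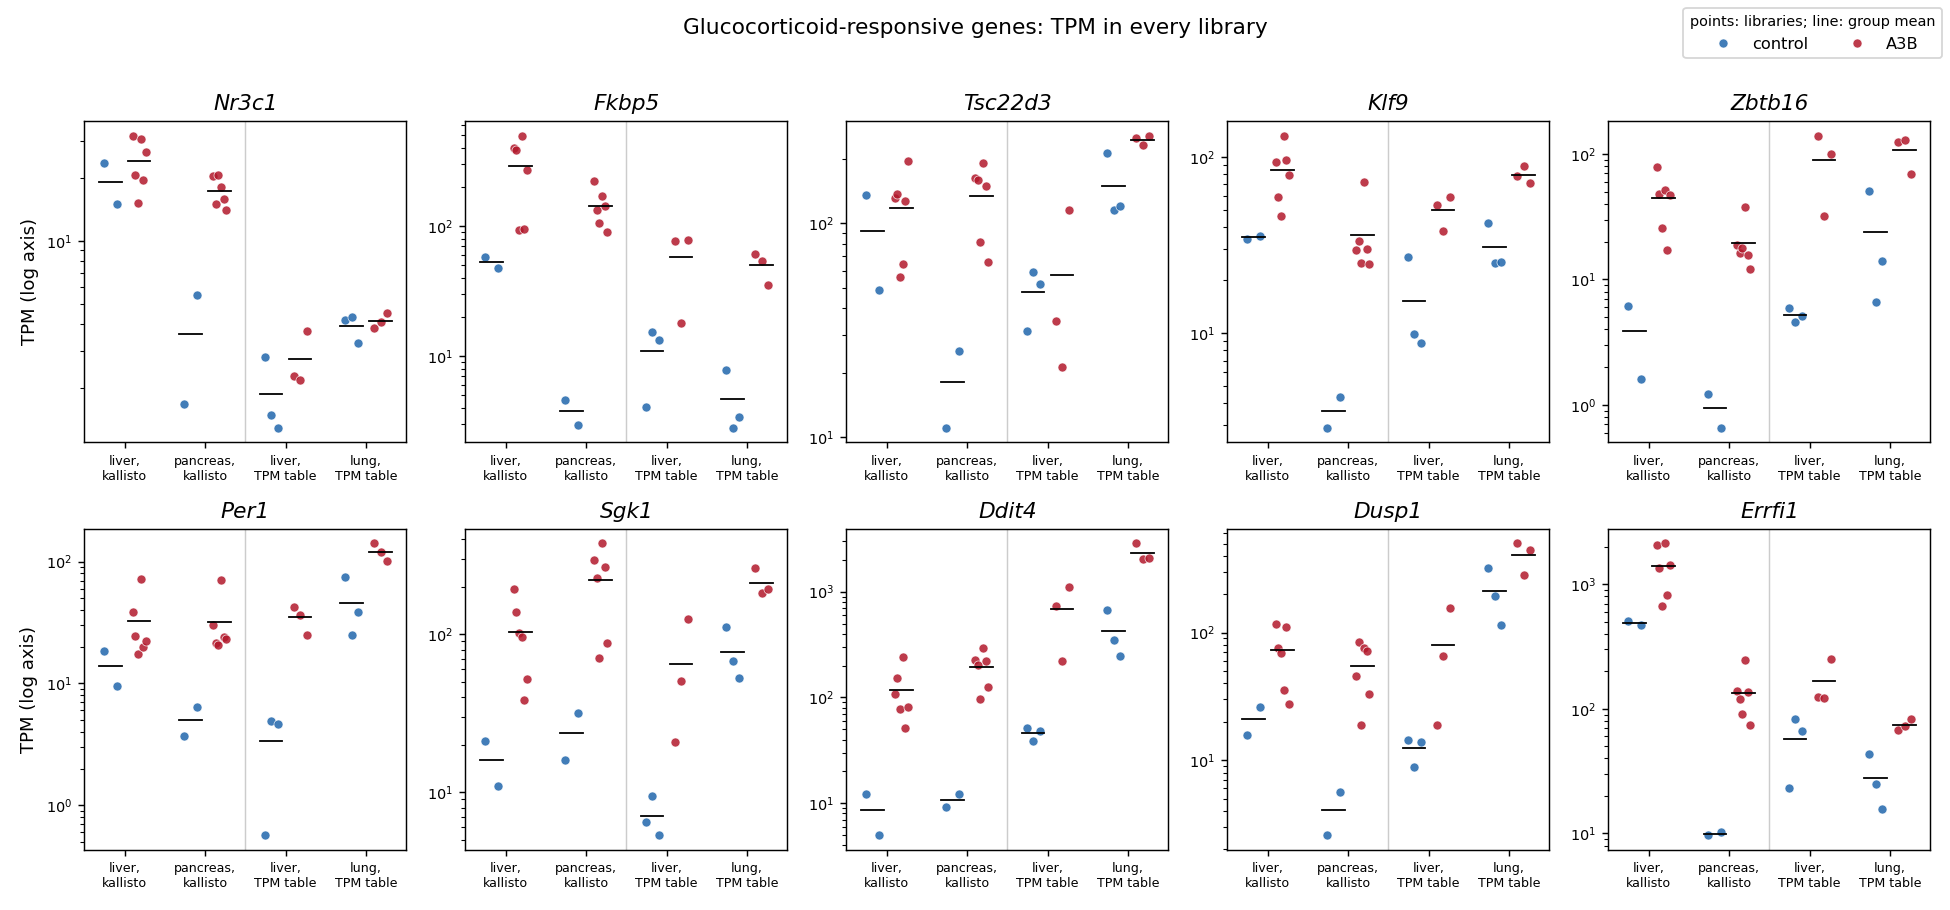
TPM on a log axis (y) of each of the 10 genes in every library, by tissue and set (x), with controls in blue, A3B in red and group means as lines; levels may be compared within a set only. For Fkbp5, Klf9, Zbtb16, Sgk1, Ddit4 and Errfi1 the red points lie above the blue ones in every tissue and set. TPM carries no correction for composition, and in pancreas 70.8% of all genes tested separated in this way. The share of all genes that do so in every tissue and set was not computed. On the scale of the tests, Klf9 and Errfi1 overlapped in kallisto liver, and Klf9 and Sgk1 in pancreas.

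Of the transcriptional regulators, Zbtb16 (chr9:48654297-48836222, minus strand) had the largest fold change in each comparison. Its product PLZF is a zinc-finger repressor that dexamethasone induces in many cell types. In kallisto liver it ran from 17.2 through 47.1 to 79.3 TPM in A3B and was 6.13 and 1.6 TPM in controls. The groups did not overlap, and the log2 fold change was 3.18 ± 0.60 (adjusted p = 0.0247). The table's livers held 139, 31.9 and 99.5 TPM in A3B against 5.9, 4.57 and 5.09 TPM (log2 fold change 3.65 ± 0.53, adjusted p = 0.0202). In lung they were 125, 129 and 69 TPM, against 50.9 TPM in the control of mouse 87 and 6.61 and 14 TPM in the other controls. That control alone lay near the A3B range. The lung change of 2.53 ± 0.75 passed narrowly (adjusted p = 0.0499), and did not pass in 8 of 9 alternatives (adjusted p from 0.0523 to 0.15). It passed without the control of mouse 87 (adjusted p = 0.0102). In pancreas all 6 A3B values (12.1 to 37.5 TPM) exceeded the controls (1.22 and 0.659 TPM), while the change of 1.68 ± 0.64 did not pass (adjusted p = 0.0731).

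Per1 (chr11:69095217-69109960, plus strand) encodes a negative limb component of the clock and is also a receptor target. Among the table's livers it was 42.8, 36.8 and 24.8 TPM in A3B and 0.567, 4.92 and 4.67 TPM in controls, a log2 fold change of 3.22 ± 0.55 (adjusted p = 0.0259). In the kallisto livers it ran from 17.5 through 23.6 to 71.5 TPM against 18.5 and 9.5 TPM, so the groups overlapped and 0.74 ± 0.49 did not pass (adjusted p = 0.395). Mouse 125 alone stood at 71.5 TPM in liver and 71 TPM in pancreas, above every other A3B mouse in both tissues. In pancreas the change was 0.38 ± 0.48 (adjusted p = 0.572). In lung Per1 rose from 74.8, 25.1 and 38.4 TPM to 141, 120.4 and 101 TPM (1.50 ± 0.39, adjusted p = 0.0288). The calls of Per1 in the table's livers and in lung each held in 5 of 9 alternatives. The hour at which tissues were taken is not given in the sources used here, and its part in these values was not tested.

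Klf9 (chr19:23141226-23168134, plus strand), a Krüppel-like factor, was 34.5 and 35.5 TPM in the kallisto control livers and ran from 46.5 through 86.9 to 132 TPM in A3B. After scaling for composition the lowest A3B liver fell within the controls, and 0.94 ± 0.47 did not pass (adjusted p = 0.265). Klf9 in the table's livers was 53.3, 37.9 and 59.2 TPM against 27.1, 9.94 and 8.8 TPM, just short of the threshold (1.80 ± 0.46, adjusted p = 0.0532). In lung it rose from 42, 24.9 and 25.5 TPM to 78.4, 88.8 and 71.4 TPM (1.38 ± 0.21, adjusted p = 0.00598). The lung call held in all 9 alternatives. In pancreas Klf9 ran from 24.8 through 29.9 to 72.4 TPM against 2.91 and 4.35 TPM, with mouse 125 alone above 33.2 TPM (1.03 ± 0.47, adjusted p = 0.121).

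Tsc22d3 (chrX:140539528-140600659, minus strand) encodes GILZ, which carries much of the hormone's anti-inflammatory action. Of the 9 responsive genes it had the smallest fold change in both liver sets. The 6 A3B livers of the kallisto set ran from 56.1 through 129 to 195 TPM and the controls were 135 and 48.6 TPM. Those values overlap widely (0.04 ± 0.51, adjusted p = 0.977). Values in the table's livers were 34.9, 21.4 and 116 TPM against 31.3, 59.5 and 51.8 TPM (-0.04 ± 0.61, adjusted p = 0.967). In pancreas it ran from 65.6 through 154 to 191 TPM against 11.1 and 25.3 TPM (0.68 ± 0.44, adjusted p = 0.26). In lung it was 249.6, 232 and 256 TPM in A3B and 212, 116 and 121 TPM in controls, a change of 0.77 ± 0.23 (adjusted p = 0.0403) that passed in 3 of 9 alternatives.

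Of the regulators of signalling, Ddit4 (chr10:59949669-59951834, minus strand) rose in every comparison. It encodes REDD1, an inhibitor of mTORC1 that hypoxia and DNA damage also induce. In kallisto liver it ran from 51.6 through 94 to 239 TPM against 12.2 and 4.98 TPM (log2 fold change 3.48 ± 0.70, adjusted p = 0.0301). In pancreas it ran from 96.9 through 212 to 295 TPM against 9.2 and 12.1 TPM (1.89 ± 0.52, adjusted p = 0.0191). The A3B and control values did not overlap in either tissue. The table's livers held 732, 222 and 1101 TPM in A3B against 51.4, 38.6 and 48 TPM in controls (3.60 ± 0.57, adjusted p = 0.0228). In lung it was 2857, 2018 and 2070.4 TPM against 666, 349 and 248 TPM (2.56 ± 0.37, adjusted p = 0.00585). The lung levels were the highest of the 10 genes in that tissue.

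Sgk1 (chr10:21882184-21999903, plus strand) encodes a kinase that regulates ion channels and FOXO factors. It ran from 38.5 through 98.8 to 194 TPM in A3B and was 21.2 and 10.9 TPM in control livers of the kallisto set (2.13 ± 0.49, adjusted p = 0.0453). The table gave 20.9, 50.6 and 124 TPM against 6.44, 9.52 and 5.35 TPM (2.72 ± 0.61, adjusted p = 0.0432). These 2 calls held in 6 of 11 and in 2 of 9 alternatives. The groups did not overlap in either set of livers. In lung it rose from 111, 68.1 and 52.8 TPM to 261, 181 and 194 TPM (1.49 ± 0.28, adjusted p = 0.0106). In pancreas the A3B values spread from 70.2 through 246 to 375 TPM against 16 and 31.7 TPM, and after scaling 4 of 6 lay above both controls (1.01 ± 0.67, adjusted p = 0.279).

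Dusp1 (chr17:26505590-26562128, minus strand) encodes MKP-1, a phosphatase that ends MAP kinase signalling, and passed in none of the 4 comparisons. Its log2 fold changes were 1.38 ± 0.57 in kallisto liver (edgeR adjusted p = 0.184), 1.59 ± 0.61 in pancreas (adjusted p = 0.0775), 2.17 ± 0.70 in the table's livers (adjusted p = 0.088) and 1.03 ± 0.41 in lung (adjusted p = 0.0967). The point estimates were all positive, and its A3B livers spread widely, from 27.6 to 117 TPM in the kallisto set and from 18.7 to 156 TPM in the table. The lung change passed in 1 of 9 alternatives (1.40, limma adjusted p = 0.0306). That alternative left out the control of mouse 87, which stood at 324 TPM against 194 and 115 TPM in the other lung controls. Errfi1 (chr4:150853919-150868892, plus strand), a feedback inhibitor of the EGF receptor, was the member with the highest level in kallisto liver. It ran there from 664 through 1380.4 to 2125 TPM against 506 and 472 TPM (1.13 ± 0.54, adjusted p = 0.242). The table's livers held 125, 123 and 253 TPM against 23.3, 82.7 and 66.6 TPM, with no overlap (1.62 ± 0.54, adjusted p = 0.0926). Errfi1 passed in lung, where 67.4, 72.2 and 83.6 TPM stood against 43.3, 25.1 and 15.6 TPM (1.49 ± 0.34, adjusted p = 0.0195). That call held in 5 of 9 alternatives.

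The livers of the 2 sets came from different mice. In both sets, every A3B liver lay above every control for 4 of the 10 members, Fkbp5, Zbtb16, Sgk1 and Ddit4, against 11.8% of the 10886 genes tested in both. Zbtb16, Sgk1 and Ddit4 were called higher in both sets, as were 1.01% of those genes. Both shares exceed those of all genes, but the calls rest on few animals. In the table's livers the calls of Zbtb16, Sgk1 and Ddit4 held in 5, 2 and 5 of 9 alternatives. With edgeR, no member passed in the kallisto livers without A3B mouse 44 or 137, where 4 members had an unadjusted p under 0.05. Few genes of any kind were called higher in those fits, 43 and 45 in the same order against 218 with all libraries. Leaving out control mouse 45 or 168 left 1 control, so that the A3B livers alone gave the spread. The median log2 fold change over the members was then 1.02 and 1.44. With limma, none passed in the table's livers without A3B mouse 23 or control mouse 91 or 92, where 7 or 8 had an unadjusted p under 0.05 and 43, 1 and 7 of all genes were higher, against 699 with all libraries. The direction of Zbtb16, Sgk1 and Ddit4 stayed positive in each of these fits. As every A3B liver lay above every control for them, this could hardly have been otherwise and is no separate support.

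Within tissues the separation was as follows. On the scale of the tests, every A3B sample exceeded every control for 4 of 10 members in kallisto liver (against 15.0% of all genes tested), 4 of 10 in pancreas (25.1%), 8 of 10 in the table's livers (28.5%) and 8 of 10 in lung (23.3%). Fkbp5, Zbtb16 and Ddit4 were separated in all 4 comparisons, which share animals in part. The share of all genes separated in all 4 was not computed, so this count has no background beside it. In pancreas the fourth was Errfi1, at 74.3 to 247 TPM against 9.68 and 10.2 TPM (1.41 ± 0.53, adjusted p = 0.0669).

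The pancreas values depend on the scaling. In control pancreata, 10 genes took 62.4% and 59.7% of the counts, against 12.1% to 20.6% in A3B pancreata. The trimmed-mean (TMM) factors that correct for this were 0.21 and 0.443 in controls and 1.3 to 1.79 in A3B. In TPM, which carries no such correction, all 10 members were higher in 6 of 6 A3B pancreata than in both controls, from 4.81 times for Nr3c1 to 37.9 times for Fkbp5, but so were 70.8% of all 19142 genes tested. With library totals in place of TMM factors all 10 members passed, as did 13483 of the 19142 genes (higher). The median over all genes was then 2.29 in place of 0.09, and Nr3c1 (2.30) stood at that median. DESeq2 called 5 members (Fkbp5, Zbtb16, Ddit4, Dusp1 and Errfi1) and 3638 of 26201 genes higher. Relative to the median of all genes, Fkbp5 led under each scaling, as the plot of the 3 scalings shows.

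**Figure D3:**
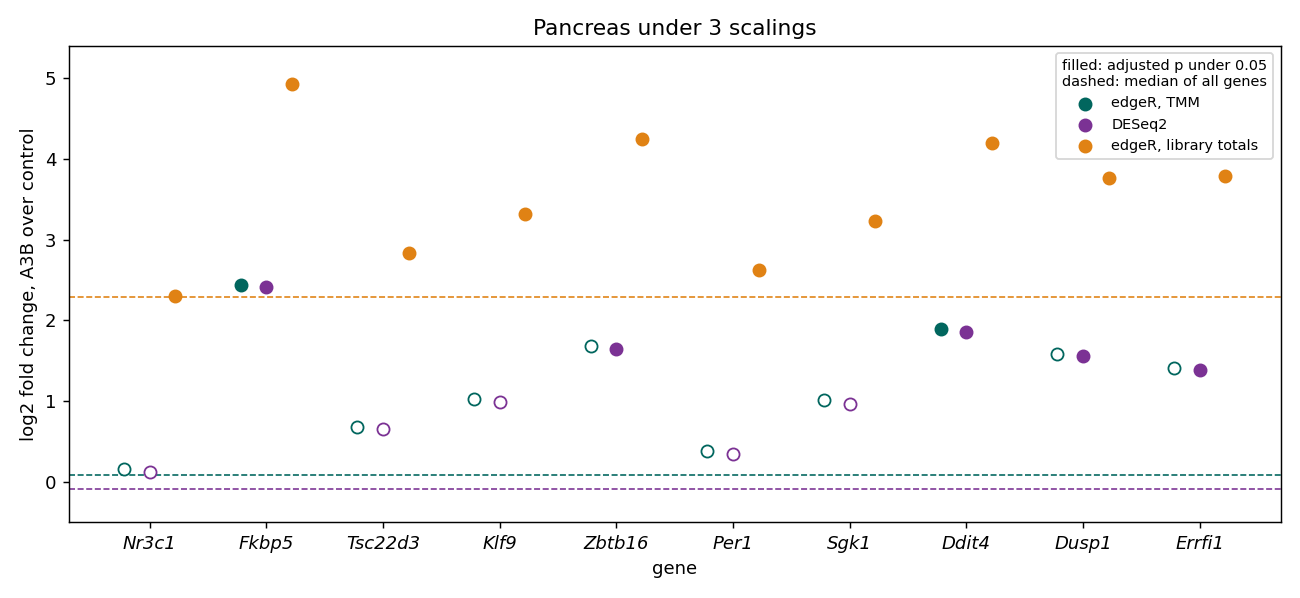
Log2 fold change of A3B over control pancreas (y axis) of the 10 genes (x axis) under 3 scalings, with filled points at an adjusted p under 0.05 and the median of all genes tested as a dashed line in the same colour. Under library totals the points shift up together with the median of all genes, from 0.09 to 2.29.

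Cell markers moved in the pancreas as well. Of 8 acinar markers 7 were lower, and their summed level was 59721 to 160826 TPM in A3B against 294805 and 307346 TPM in controls. Macrophage markers were higher (5 of 6, 1562 to 4688 TPM against 44.8 and 531 TPM), as were 4 of 6 ductal markers (1280.3 to 3032 TPM against 55.5 and 107 TPM) and 4 of 6 fibroblast and stellate markers (952 to 1456 TPM against 40.5 and 185 TPM). The counts of markers are on the corrected scale, whereas the sums are in TPM, which carries no correction for composition. The part of these cell types in the pancreas values of Fkbp5 and Ddit4 was not tested. Without the pancreata of mice 44 and 137, whose labels conflict, Fkbp5 still passed (2.22) and Ddit4 did not (1.72), so 1 member was called.

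In liver, 0 of 8 hepatocyte markers passed with edgeR in the kallisto set (2 were lower at an unadjusted p under 0.05 and 2 with DESeq2), and 1 was lower in the table. Their summed level was 43711 to 100542 TPM in A3B and 97211 and 160483 TPM in the kallisto controls, and 7698 to 10490.0 TPM against 10679 to 14280.3 TPM in the table. Neutrophil markers summed to 7.36 to 126 TPM against 3.87 and 6.05 TPM in the kallisto livers, where 0 of 6 passed with edgeR (4 were higher at an unadjusted p under 0.05, and 3 with DESeq2). Adipocyte markers did not overlap between the groups in either set, at 27.1 to 265 TPM in A3B against 11.3 and 17.5 TPM in the kallisto livers and 142 to 742 TPM against 25.2 to 27.9 TPM in the table. One of them, the lipid droplet gene Cidec, was higher in the table (4.56 ± 0.55, adjusted p = 0.013), where 2 of the 6, Cidec and Fabp4, passed the filter on low values. In the table's livers the summed endothelial markers did not overlap either (65.6 to 87.7 TPM against 125 to 144 TPM), a sum led by Cldn5 (46.3 against 101 TPM on average), while 0 of 5 tested passed with limma (1 lower at an unadjusted p under 0.05) and their median log2 fold change was 0.01. The summed acinar markers there (9.76 to 10.1 TPM against 52.7 to 119.5 TPM) were mostly Cela1, the 1 of 8 that passed the filter on low values, and in the kallisto livers their sums overlapped (6.41 to 523 TPM against 78 and 107 TPM). In lung, 1 of 6 epithelial markers was lower (summed 18227 to 19810.1 TPM against 19267 to 20618 TPM), and hepatocyte markers, at 14.5 to 798 TPM in A3B and 1.43 to 973 TPM in controls, varied within both groups. Endothelial markers summed to 4531 to 5195 TPM in A3B lungs against 3536 to 3913 TPM (1 of 6 higher, Cldn5, and 1 lower, Kdr), and macrophage markers to 1022 to 1153 TPM against 1305 to 1389 TPM (1 of 6 lower, Lyz2), and neither pair of ranges overlapped. T cell markers summed to 108 to 143 TPM against 145 to 249 TPM (1 of 6 lower, Cd2). Their part in the values of the members was not tested.

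No member passed the test for a difference in response between tissues in the main fits. The difference of the A3B effect, pancreas minus liver, ranged from -1.42 ± 0.79 for Ddit4 (adjusted p = 0.243) and -1.34 ± 0.79 for Zbtb16 (adjusted p = 0.275) to 0.81 ± 0.71 for Tsc22d3 (adjusted p = 0.484). Of all genes, 11.9% passed that test in either direction. Of the 10 members none did with edgeR and TMM factors or with DESeq2, at an unadjusted p under 0.05 either. With library totals 5 of 10 members were higher in that test, as were 7848 of 19927 genes. The signs of Ddit4 and Zbtb16 then turned (0.34 and 0.64). For lung minus liver, 10.7% of all genes passed and no member did with limma, with 1 member, Per1, at an unadjusted p under 0.05 (-1.73 ± 0.73, adjusted p = 0.143). Standard errors of these differences reached 0.81 and 0.95 log2 units, so a p above the threshold does not show that the tissues responded alike.

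5 A3B mice and both controls gave a liver and a pancreas. Among the A3B samples of each tissue, on the scale of the tests, mouse 49 was lowest for 7 of 10 members in liver and 8 of 10 in pancreas. Mouse 125 was highest for 5 of 10 in liver and 8 of 10 in pancreas. Ddit4 stood at 77.1 TPM in liver and 96.9 TPM in pancreas of mouse 49 and at 239 and 295 TPM in mouse 125. In TPM, which the TMM factors do not enter, mouse 49 was lowest for 6 of 10 in liver, and in pancreas mouse 49 was lowest for 4 of 10 and mouse 153 for 6 of 10. Mouse 49 also had the highest TMM factor in each tissue (1.29 and 1.79). The part of that factor in the order of the mice was not tested, and the order is a description of 5 animals. In lung, the control of mouse 87, labelled CAGs, was the highest of 3 controls for 9 of 10 members, all but Nr3c1. Without it 9 members passed in place of 8, and 1811 of 13675 genes were higher in place of 2191 of 13651.

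**Figure D4:**
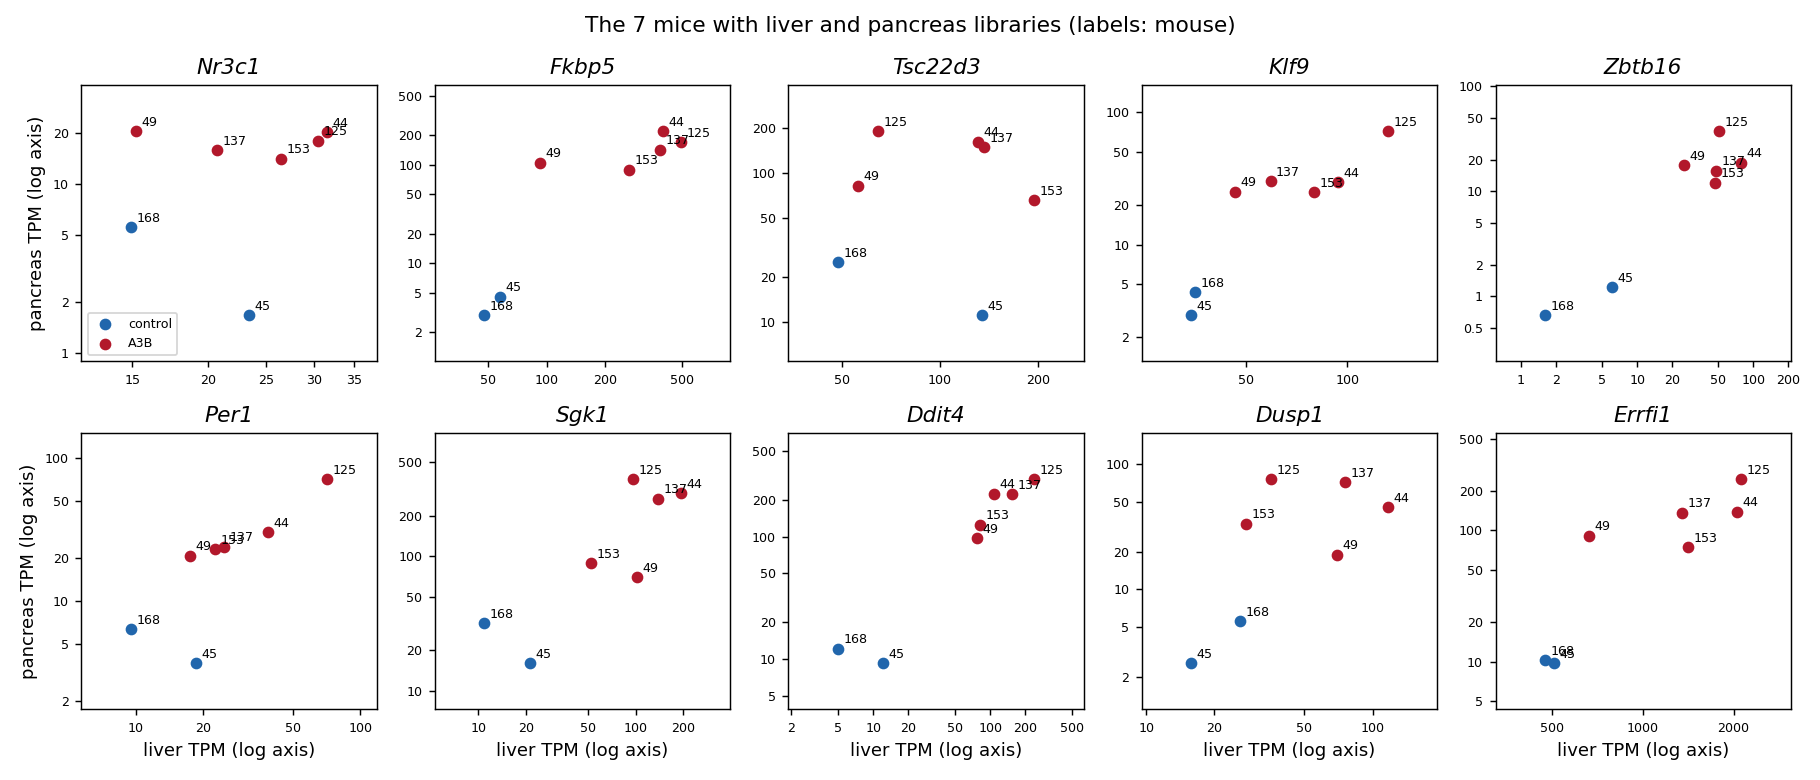
TPM in liver (x, log axis) against TPM in pancreas (y, log axis) for each of the 10 genes in the 7 mice with both tissues, A3B in red and control in blue, with mouse numbers as labels. Mouse 125 is highest in both tissues for Klf9, Per1, Ddit4 and Errfi1.

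The order of all genes by likeness to Fkbp5 was taken over the 16 kallisto libraries, on log2 CPM (counts scaled by TMM-corrected library size) centred within each of the 4 groups, so that the A3B effect itself was removed. Libraries of 1 mouse and the TMM factors are shared by these points. The closest were Fem1a (Pearson r = 0.932), Tom1 (0.927), Zfp358 (0.926), Fbxo31 (0.923) and Zfp282 (0.922). Of the members, Errfi1 was at rank 8 of 19926 genes (r = 0.908), Zbtb16 at 351 (0.754) and Ddit4 at 670 (0.696). Tsc22d3 (0.354), Nr3c1 (0.274) and Dusp1 (0.114) followed Fkbp5 least.

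Beyond the 10 genes, 53 genes of the pathway were listed in 4 groups. Of those tested, 8 of 49 were higher and 1 lower in kallisto liver (against 1.25% and 2.41% of all genes), and 24 and 1 of 53 in pancreas (against 17.0% and 14.9%). In the table's livers 7 of 45 were higher (against 6.07%) and 0 lower with limma (3 at an unadjusted p under 0.05). The counts were 23 and 2 of 50 in lung (against 16.1% and 20.8%). With library totals 42 of 53 were higher and 0 lower in pancreas, where 13483 of 19142 genes were higher. The counts were 13 and 1 of 49 in kallisto liver, where 878 of 17376 genes were higher. DESeq2 gave 25 and 2 in pancreas (3638 of 26201 genes higher) and 14 and 1 in kallisto liver (1290 of 24484). Leaving out control mouse 45 or 168 left 1 control per tissue and fewer listed genes called higher. Without control mouse 91 no listed gene passed in the table's livers, where 1 of all genes was called higher. In pancreas 16 were higher and 1 lower without pancreata 44 and 137.

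**Figure D5:**
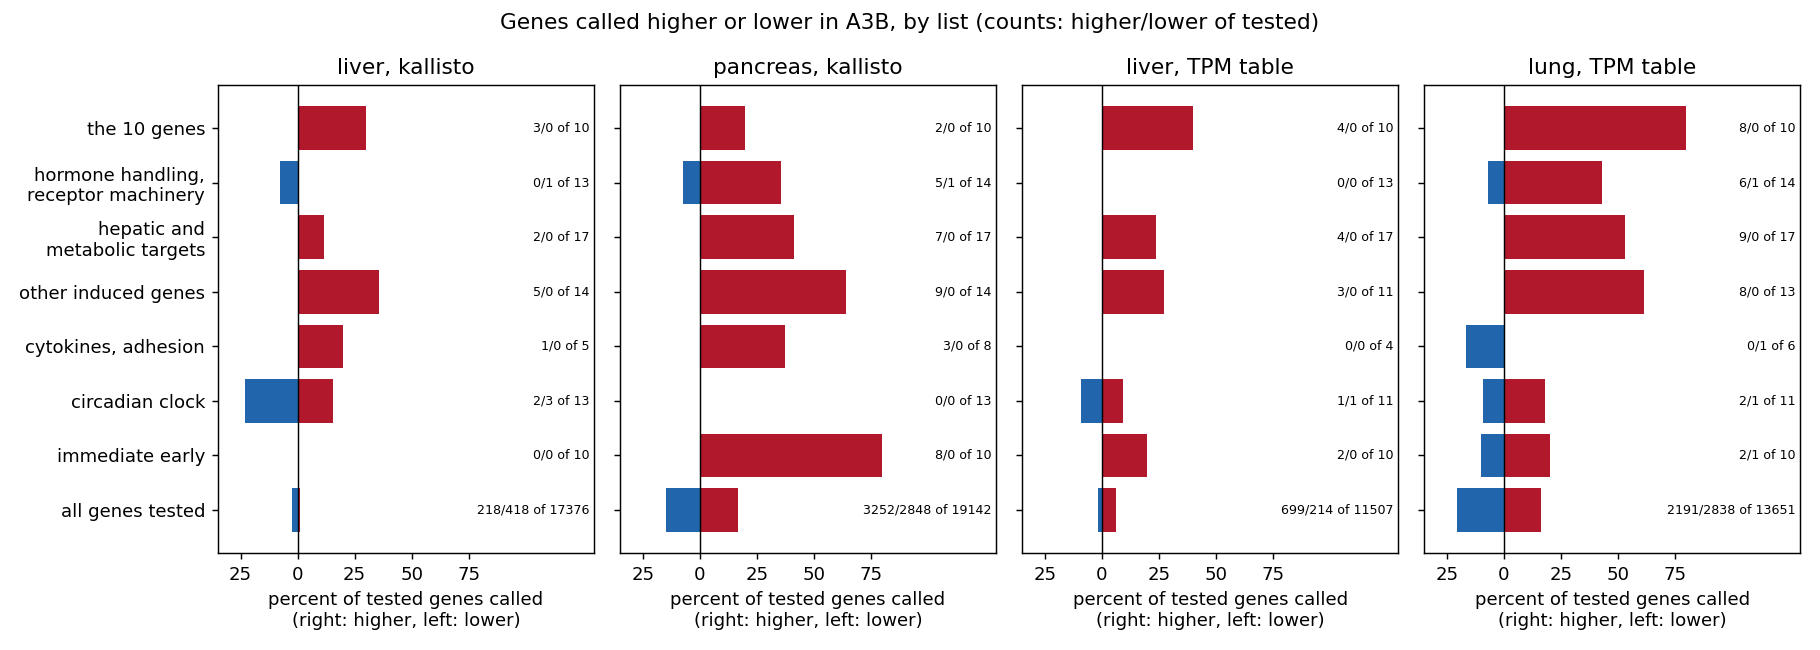
Percent of the genes tested in each list (rows) that were higher (red, right) or lower (blue, left) in A3B at an adjusted p under 0.05, in the 4 comparisons, with counts of higher/lower of tested at the right. The bars of the 10 genes and of the other induced genes exceed that of all genes tested in liver and lung, where 1.25%, 6.07% and 16.1% of all genes were higher. In pancreas 17.0% of all genes were higher.

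Among hepatic and metabolic targets, Pdk4, which blocks pyruvate oxidation in fasting, rose in all 4 comparisons. It stood at 94.6 ± 65.9 TPM (SD, n = 6) against 1.48 ± 1.1 TPM (SD, n = 2) in kallisto liver (log2 fold change 5.47 ± 1.02, adjusted p = 0.0242). The log2 fold changes in pancreas, the table's livers and lung were 4.35 ± 0.66, 4.67 ± 0.88 and 3.20 ± 0.18. Cebpd, a factor of the acute phase response, also rose in all 4 (2.06 ± 0.38, 1.54 ± 0.35, 2.80 ± 0.40 and 0.89 ± 0.18). Igfbp1, which binds insulin-like growth factors and rises when insulin is low, was higher in the table's livers (3.89 ± 0.49, adjusted p = 0.0133) and short of the threshold in the kallisto livers (4.94 ± 1.25, adjusted p = 0.0589). Angptl4, an inhibitor of lipoprotein lipase, rose in pancreas (3.28 ± 0.60), the table's livers (1.90 ± 0.31) and lung (1.76 ± 0.14). Of the 17 genes of this list, 2 were higher in kallisto liver, 7 in pancreas, 4 in the table's livers and 9 in lung, beside the shares of all genes given above. In lung Lpin1 (2.50 ± 0.19) and Foxo3 (1.79 ± 0.10) were among them. Tat (1.99 ± 0.80 and 1.16 ± 0.57) and Klf15 (0.48 ± 0.52 and 0.39 ± 0.72) passed in neither liver set. Nor did the gluconeogenesis genes Pck1 (0.48 ± 0.64 and 0.20 ± 0.69) and G6pc (0.98 ± 0.85 and -0.17 ± 1.63).

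Of the other induced genes, Cdkn1a, which encodes the cell cycle inhibitor p21 and is a p53 target as well, rose in all 4 comparisons, from 5.23 ± 4.72 to 162 ± 77.5 TPM in kallisto liver (4.61 ± 0.73) and by 2.14 ± 0.52, 2.91 ± 0.32 and 2.83 ± 0.15 in pancreas, the table's livers and lung. Lcn2, an iron-sequestering acute phase protein that inflammation induces strongly, rose in both liver sets (7.21 ± 0.88 and 4.63 ± 0.45) and in pancreas (8.81 ± 0.97). Mt2, a metallothionein, was higher in kallisto liver (3.05 ± 0.70) and lung (2.69 ± 0.20). Fam107a, an actin regulator known as a stress-induced gene in brain, rose in kallisto liver (5.35 ± 1.14), pancreas (4.21 ± 0.72) and lung (1.68 ± 0.33).

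Of the hormone handling list, 0 genes were higher and 1 lower in kallisto liver (of 13 tested with edgeR; 1 higher at an unadjusted p under 0.05, and 0 with DESeq2), and 5 were higher and 1 lower in pancreas (of 14). In the table, tested with limma, 0 of 13 passed in liver (4 were higher and 3 lower at an unadjusted p under 0.05), and 6 of 14 were higher and 1 lower in lung. Of all genes tested, 1.25% were higher and 2.41% lower in kallisto liver, and 17.0% and 14.9% in pancreas. The shares were 6.07% and 1.86% in the table's livers and 16.1% and 20.8% in lung. Serpina6, which encodes the corticosteroid-binding globulin that liver secretes, fell from 459.9 and 225 TPM in control livers to between 1.05 and 31.3 TPM in A3B livers of the kallisto set (-4.59 ± 0.81, adjusted p = 0.0205). The table's A3B livers held 32.4, 0.295 and 119 TPM against 411, 613 and 1115 TPM, with no overlap, and -5.24 did not pass (adjusted p = 0.0653). In pancreas it was higher, 14.8 to 112 TPM against 0.106 and 0.114 TPM (6.15 ± 1.07, adjusted p = 0.00337). The 8 hepatocyte markers summed to 116 to 1132 TPM in those A3B pancreata against 19.1 and 77.3 TPM in controls, with no overlap. In pancreas TPM, which carries no correction for composition, 70.8% of all genes separated in that direction. Of the 8 markers, 7 had a positive log2 fold change and 0 passed with edgeR (0 at an unadjusted p under 0.05 and 0 with DESeq2). Their part in the Serpina6 values was not tested. Hsd11b1, which regenerates active hormone in liver, was 48.9 to 321 TPM in A3B and 558 and 372 TPM in controls of the kallisto livers (-1.63 ± 0.56, adjusted p = 0.127). In pancreas Nr3c2, the mineralocorticoid receptor, was the lower gene (-1.84 ± 0.30, adjusted p = 0.00152). The other higher genes there were the chaperones Hsp90ab1 (2.06 ± 0.38) and Hsp90aa1 (1.38 ± 0.32) and the coactivators Ncoa2 (1.21 ± 0.33) and Ncoa3 (0.98 ± 0.30). In lung the coactivators Ncoa2 (0.91 ± 0.12), Ncoa3 (0.49 ± 0.09) and Ncoa1 (0.55 ± 0.10) rose, as did Ncor1 (0.53 ± 0.10), Med1 (0.46 ± 0.10) and Nr3c2 (0.81 ± 0.18). Fkbp4, the co-chaperone that favours receptor transport, was the lower gene in lung (-0.57 ± 0.11, adjusted p = 0.00919).

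Among 8 cytokine and adhesion genes that the hormone is known to restrain, Cxcl1, a neutrophil chemoattractant, was higher in kallisto liver (3.87 ± 0.78, adjusted p = 0.0303) and pancreas (3.49 ± 0.97, adjusted p = 0.021). Icam1 and Ptgs2 were higher in pancreas too, and Nos2 was lower in lung (-1.23 ± 0.20, adjusted p = 0.00657). In liver, 1 of 5 tested genes of this list was higher in the kallisto set and 0 of 4 in the table (Cxcl1 3.68 ± 1.03, limma adjusted p = 0.0638, and Icam1 1.47 ± 0.38, adjusted p = 0.0555). The shares of all genes called higher in these sets were 1.25% and 6.07%.

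The clock list, to which Per1 is tied by function, moved in both directions in liver. Cry1 rose (2.84 ± 0.46 and 2.22 ± 0.43 in the 2 liver sets) and Nr1d1, the repressor REV-ERBα, fell (-2.71 ± 0.44 and -2.05 ± 0.42). In the kallisto livers Nr1d1 was 5.55 to 23 TPM in A3B against 60.5 and 55.9 TPM, and Dbp was 2.34 to 18.7 TPM against 86.1 and 63.6 TPM (-3.82 ± 0.68, adjusted p = 0.0205). Dbp fell in lung as well (-1.60 ± 0.39, adjusted p = 0.0244), and was at -2.10 ± 0.88 in the table's livers, which did not pass (adjusted p = 0.148). In pancreas 0 of 13 clock genes passed with edgeR (1 was higher and 2 lower at an unadjusted p under 0.05, and 1 in each direction with DESeq2). The immediate early list, which shares stimuli with Dusp1, had 8 of 10 genes higher in pancreas (against 17.0% of all genes), led by Ier3 (4.55 ± 0.35) and Egr1 (3.29 ± 0.29), and 0 of 10 in the kallisto livers with edgeR (5 at an unadjusted p under 0.05, 3 with DESeq2), where Btg2 was at 4.35 ± 1.13 (adjusted p = 0.0641). In the table's livers 2 of 10 were higher (against 6.07% of all genes), and Btg2 was one of them (3.84 ± 0.38, adjusted p = 0.0109). In lung 2 of 10 were higher and 1 lower, against 16.1% and 20.8% of all genes. The count of higher genes there stands close to the background. The lower gene was Ier3 (-1.46 ± 0.20, adjusted p = 0.00486).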

How the data were processed

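Gene expression was measured by bulk RNA sequencing (TruSeq Stranded) in livers, pancreata and lungs. For the kallisto libraries the authors ran kallisto against mm10, and each deposited file lists estimated counts with TPM for every transcript. For the table the authors deposited TPM values per gene, made from counts of duplicate-removed alignments. Here transcripts were summed per gene symbol (97.8% matched) and estimated counts rounded. Kallisto libraries were tested with edgeR 4.0.16 (robust quasi-likelihood, TMM factors, filterByExpr), and the table with limma 3.58.1 (trend, robust) on log2(TPM + 1) after removing genes averaging under 1 TPM, so that fold changes of low genes are understated. Interaction terms tested differences between tissues. P-values were adjusted by Benjamini-Hochberg over all genes tested, with a threshold of 0.05, and ± on a fold change is the SE. DESeq2 1.42.0, library totals, other filters and pseudocounts, median centring and leaving out each library in turn (each mouse, with both its tissues, for pancreas minus liver) were alternatives. The scripts were tested on simulated data.

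The genes and lists were chosen with earlier results of these data known. Pathway genes were named from the 4 smallest p of a list in a comparison, and some were also given in other comparisons. Those named outside this rule, such as Ncor1, Med1 and Nr3c2 in lung, the lung markers and genes whose response differed between tissues, were chosen after their values were seen. Locations are from GENCODE on GRCm38. The hormone itself was not analysed here. Livers and pancreata of the same 7 mice are paired by animal. The correlation of their deviations from the group means ran from -0.00444 to 0.279. Levels are compared within a set only, as the sets were quantified separately.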

Additional observations from a re-analysis of the deposited data

Results flagged for a closer look

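No member differed in its response between tissues at the threshold in the main fits, but genes of the surrounding lists did, by the test of the difference itself. For pancreas minus liver, the log2 difference was 10.88 for Serpina6 (edgeR adjusted p = 0.0025), 2.54 for Hsd11b1, 2.65 for Hsp90ab1, 1.17 for Stip1, 1.60 for Ncoa2 and -1.61 for Nr3c2, all of hormone handling. It was 1.82 for Cebpb and 1.68 for Bcl6 of the metabolic targets, 2.03 for Mertk and -3.60 for Gadd45b of the other induced genes, and 2.13 for Junb and 3.12 for Ier3 of the immediate early list. Among clock genes it was -1.88 for Arntl, -2.06 for Cry1 and 2.92 for Nr1d1. Of the 53 pathway genes, which leave out the clock and immediate early lists, 8 were higher and 2 lower in this test with edgeR. Over all 19927 genes tested, 1368 were higher and 1001 lower. With the mouse as a replicate block the counts were 5 and 2, against 1070 and 492 of all 19629 genes. With library totals they were 24 and 0, against 7848 and 223 of all 19927 genes. Leaving out control mouse 45 or 168 left 1 control per tissue and fewer of these calls. Acinar, macrophage, ductal and fibroblast markers changed in the pancreas as well, and their part in these values was not tested.

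For lung minus liver in the table, the log2 difference was -4.21 for Lcn2 (limma adjusted p = 0.00262), -3.26 for Btg2 (adjusted p = 0.00359), -3.32 for Gadd45b, -2.21 for Jun, -1.91 for Cebpd, -1.77 for Icam1, -1.46 for Nos2 and 2.28 for Nr1d1. Of the 50 pathway genes tested, 0 were higher (limma, 1 at an unadjusted p under 0.05) and 5 lower, against 1187 lower of all 13477 genes, whose median was -0.39, so this count stands close to that over all genes. The counts were 0 and 3 with samples centred on their median, 2 and 9 without control liver 11, and 4 and 7 without A3B liver 70.

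Among the members, 20 groups of 6 A3B libraries were tested for a library far from the others. On the log2 CPM scale none was found. In TPM the pancreas of mouse 125 lay far above the other 5 for Klf9 (its gap to the next library was 0.824 of the range), Per1 (0.81) and Zbtb16 (0.742), where the limit is 0.625. Chance alone gives such a library in about 1 of 20 groups, and these genes were measured in the same libraries.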

How the results depend on the processing

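Few controls limit every call, and the depth of the table is unknown. When 1 A3B library was left out, the count of members higher in A3B ranged from 0 to 4 in kallisto liver and from 2 to 4 in pancreas. Leaving out control mouse 45 or 168 left 1 control in each kallisto tissue, so counts of those fits are not given. When 1 library of either arm was left out, it ranged from 0 to 4 in the table's livers. In lung it ranged from 4 (without A3B lung 69, 70 or 74) to 9 (without control lung 87). In pancreas it was 10 with library totals (and 13483 of all 19142 genes), 5 with DESeq2 (3638 of 26201) and 1 without mice 44 and 137 (2255 of 18935), an alternative chosen after seeing the data. Without the filter on low values it was 0 in the table's livers (8 at an unadjusted p under 0.05 with limma). For pancreas minus liver, library totals called 5 of 10 members higher, and 7848 of all 19927 genes, whose median was then 1.59. With the mouse as a replicate block, paired by animal, 0 members passed with edgeR, and 2 were lower at an unadjusted p under 0.05. For lung minus liver, leaving out 1 library gave 0 to 1 higher (Tsc22d3, 1.49, without A3B liver 70) and 0 to 1 lower (Ddit4, -1.70, without A3B liver 28). No block was fitted in the table, where each arm shares 1 mouse between tissues.

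Some signs turned. With library totals Nr3c1 was 0.33 in kallisto liver, and the pancreas minus liver differences were 0.64 for Zbtb16 (-1.34 with TMM), 1.49 for Per1 (-0.21), 0.63 for Sgk1 (-0.95) and 0.34 for Ddit4 (-1.42), so those of Zbtb16 and Ddit4, the largest of the 10, also turned. DESeq2 gave -0.04 for Tsc22d3 in liver. Centring samples on their median gave -0.06 for Nr3c1 in the table's livers and, for lung minus liver, 0.16 for Nr3c1, 0.06 for Klf9 and 0.36 for Errfi1. It also turned the calls over all genes in the table's livers from 699 higher and 214 lower to 271 and 458, and for lung minus liver from 261 and 1187 to 648 and 304. Leaving out 1 library gave ranges of -0.52 to 0.66 (Tsc22d3, kallisto liver), -0.72 to 0.47 (Tsc22d3, table's livers), -0.0024 to 0.62 (Per1, pancreas), -0.03 to 0.13 (Nr3c1, lung) and -0.48 to 0.42 (Errfi1, lung minus liver). For pancreas minus liver, where a mouse was left out with both its tissues, they were -0.01 to 2.02 (Fkbp5), -0.17 to 0.71 (Klf9), -0.14 to 0.77 (Dusp1) and -0.08 to 1.21 (Errfi1). The cause was not tested.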
